A study of Mus musculus with 18 samples.

Results

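Early response genes with Ier, Btg or Gadd45 names, 8 genes in all, were followed in basophils after antigen: Ier2, Ier3, Ier5 and Ier5l, Btg1 and Btg2, and Gadd45a and Gadd45b. They were taken by gene symbol and make up 8 of the 56413 gene rows of the deposited table. All 8 passed the filter on low counts that left 14076 genes for testing. Messenger RNA was sequenced in bulk in 18 libraries, 3 in each of 6 groups. The cells were basophils grown from bone marrow of WT mice or of mice lacking tristetraprolin (TTP-KO) over 7 days with IL-3 at 0.3 ng/mL. On day 6 they received an IgE against the hapten TNP at 1 µg/mL, and on day 7 cells bearing CD49b were enriched with magnetic beads. Samples of 50000 cells were then given 10 ng/mL of control OVA for 2 h (control), TNP-OVA for 2 h or TNP-OVA for 4 h, where only TNP-OVA carries the hapten that crosslinks the bound IgE. All 6 groups thus had the same culture protocol, IgE and OVA protein, and both genotypes had all 3 conditions. Cells of WT and TTP-KO came from different mice. The 4 h libraries had no control of their own time, so both times were compared with the 2 h control. Separate mice or cultures for the 3 libraries of each group are not stated in the labels, and p-values therefore measure only the spread between these libraries.

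TTP, encoded by Zfp36, binds AU-rich elements in messenger RNAs and recruits the machinery that removes their poly(A) tails. The Ier genes are named for immediate early response: their transcription starts within minutes of many growth factor, cytokine and stress signals without new protein synthesis. IER3 and IER5 proteins bind the phosphatase PP2A. BTG proteins restrain proliferation and bind the CAF1 deadenylase (Cnot7, Cnot8) of the CCR4-NOT complex. GADD45 proteins are small stress sensors that bind and activate MAP3K4, upstream of p38 and JNK kinases, and Btg2 and Gadd45a are classical p53 target genes. Ier3 messenger RNA has been described as a TTP target in fibroblasts.

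Promoter sequence was read for the members from RefSeq on build GRCm38.p6, an older build than that of the counts. A window was found for 7 of the 8 genes, all but Ier2, which was therefore not searched. The 250 bases before each start were searched on both strands for 6 motifs, the TATA box and sites of signal-driven factors. As background, 32851 windows of the same length were used. The stretches printed here, 5′ to 3′ on the strand of the gene, hold the matches, in capitals, of the 4 members with any match. Ier5, Ier5l and Gadd45a held none of the 6 motifs. In WT after antigen Ier3 and Btg1 were higher at both times, as was Ier5. Btg2 was higher and then lower, and Gadd45b was lower at 4 h. In Ier3, at chr17:35821581-35821670 on the plus strand, the capitals mark a match to the kB site of NF-kB factors on the opposite strand.
Ier3: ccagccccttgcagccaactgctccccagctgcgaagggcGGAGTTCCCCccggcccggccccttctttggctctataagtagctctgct
In Btg1, at chr10:96616782-96616980 on the plus strand, the capitals mark the FOXO site GTAAACA, which lies on the opposite strand, and the TATA box TATAAA near the start.
Btg1: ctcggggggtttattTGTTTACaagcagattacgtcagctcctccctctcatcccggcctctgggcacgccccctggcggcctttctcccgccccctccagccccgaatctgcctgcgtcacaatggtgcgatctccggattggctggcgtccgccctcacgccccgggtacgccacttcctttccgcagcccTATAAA
In Btg2, at chr1:134079274-134079361 on the minus strand, the capitals mark the cyclic AMP response element (CRE) TGACGTCA.
Btg2: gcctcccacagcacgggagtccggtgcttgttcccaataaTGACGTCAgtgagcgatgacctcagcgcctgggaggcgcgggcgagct
In Gadd45b, at chr10:80930005-80930070 on the plus strand, they mark TATAAA.
Gadd45b: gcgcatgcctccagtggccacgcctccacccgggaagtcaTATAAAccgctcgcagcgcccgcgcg
The kB match of Ier3 lay 92 to 83 bases before the start, and 3.9% of all windows held one. The CRE of Btg2 lay 166 to 159 bases before the start, against 1.55% of all windows with that motif. The FOXO site of Btg1 lay 204 to 198 bases before the start, a motif found in 3.17% of windows. TATAAA ended 21 bases before the start in Btg1 and 41 in Gadd45b, and was present in 12.4% of windows. The AP-1 site TGANTCA was in 6.75% and the CArG box of serum response factor in 1.47% of all windows, and neither was in any of the 7 members' windows. No match overlapped another, and each describes letters in the sequence, not binding.

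The libraries held 5516580 to 12733172 estimated counts, with the WT 4 h libraries among the deepest, and no library stood apart from its group on the first principal components. Counts are given as CPM, counts per 1e6 counts of the library after scaling for library composition, and such levels are compared here within a gene, not between genes. Basophil markers summed to between 25936 and 36752 CPM in every library, and all 12 of them, with Mcpt8 and Prss34 foremost, had counts. Zfp36 RNA was counted in all libraries labelled TTP-KO, at 219 to 572 CPM against 224 to 459.9 CPM in WT, so it does not check the genotype labels. On the log2 scale it was higher in TTP-KO at 2 h of TNP-OVA by 0.33 ± 0.05 (SE, adjusted p = 3.16e-04, edgeR's quasi-likelihood test). By the same test it was not called in control (-0.08 ± 0.05, adjusted p = 0.601) or at 4 h (0.14 ± 0.05, adjusted p = 0.151). Because the RNA was from bulk samples, a lower level may reflect fewer cells of a type or less RNA per cell, and these cannot be told apart.

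In WT basophils, 5 of the 8 genes rose and 1 fell after 2 h of TNP-OVA. Ier3, Ier5, Ier2, Btg1 and Btg2 rose, Ier3 the most at 3.42-fold, and Gadd45a fell 1.32-fold. Across all genes tested, 17.8% rose and 17.3% fell in that comparison. The median log2 fold change of the 8 genes was 0.67, beside -0.05 over all genes. At 4 h, 4 of the 8 were still above control (Ier3, Ier5, Btg1 and, narrowly, Ier2) and 3 were below it (Btg2, Gadd45a and Gadd45b), where 19.6% of all genes were higher and 18.4% lower. The median of the 8 was then -0.14, beside -0.01 over all genes. It fell in a gap between Ier2 (0.24) and Gadd45b (-0.52), with the uncalled Ier5l (-0.58 ± 0.49, SE) among the values below. Between 2 h and 4 h, 7 of the 8 genes fell, all but Ier5l (0.33 ± 0.54 on the log2 scale, SE, adjusted p = 0.691), where 15.2% of all genes rose and 15.9% fell. The median change over those 2 h was -0.47 for the 8 genes and 0.02 for all genes. Basophil markers in WT summed to 25936 to 27266 CPM in control and 35307 to 36406 CPM at 2 h. At 4 h the sum was 27142 to 28818 CPM. Of the 12 basophil markers, 5 were higher and 4 lower at 2 h, and 5 were higher and 7 lower at 4 h. Among them the mean of Hdc went from 2042.5 CPM in control to 6709.1 CPM at 2 h, and that of Fcer1a from 887.0 to 671.2 CPM. Of 16 neutrophil and precursor markers, 11 were lower at 4 h. The part of these shifts in the responses of the 8 genes was not tested. All calls use edgeR's quasi-likelihood test with p-values adjusted over all genes tested and a threshold of 0.05, and SE is the standard error of the log2 fold change.

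**Figure D1:**
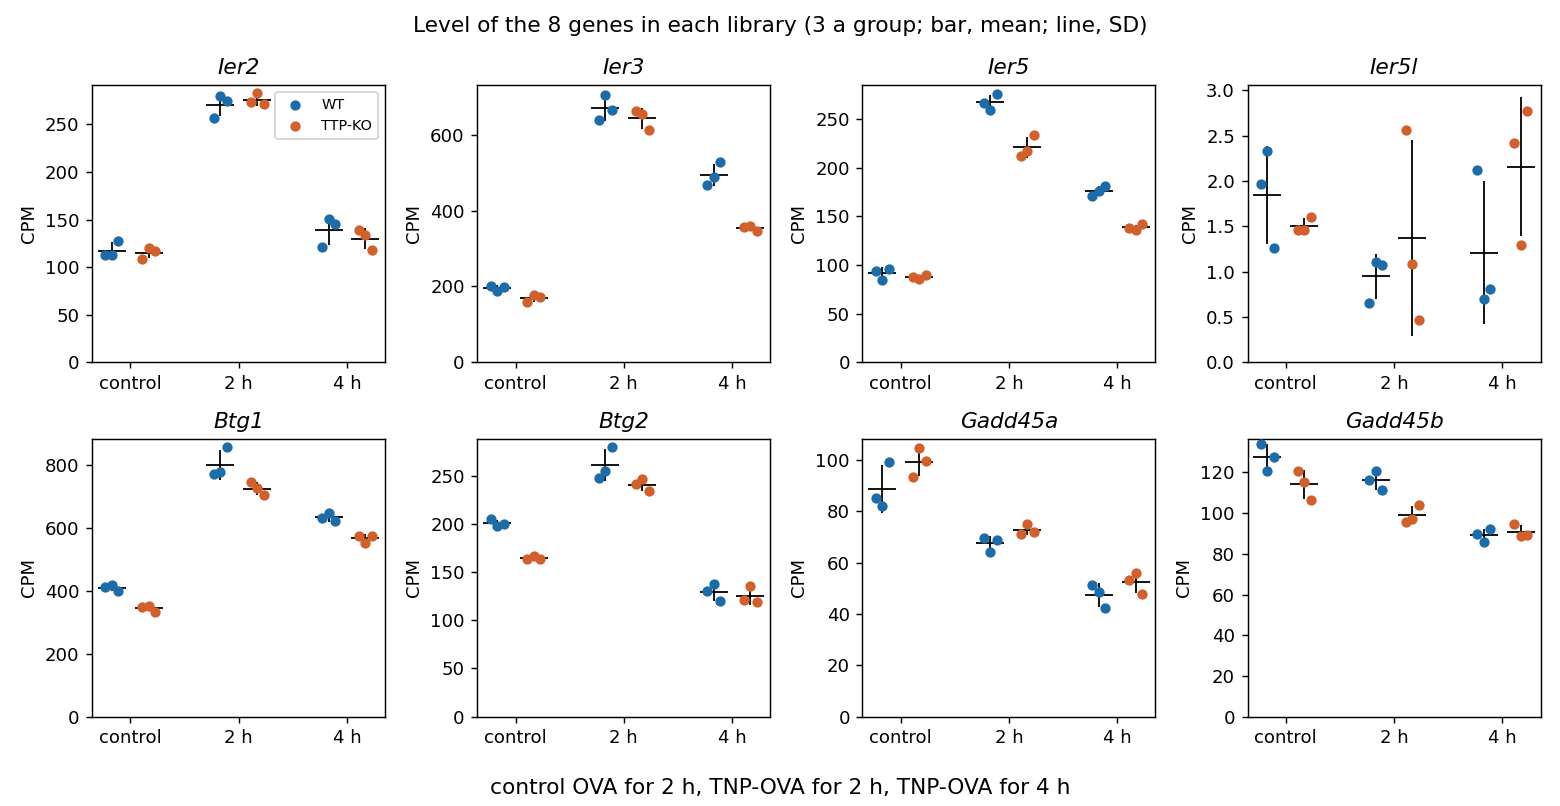
Level of each of the 8 genes in CPM (vertical axes, each from 0) in the 18 libraries, by condition (horizontal axis) and genotype (colour); points are libraries, short bars means and vertical lines SD, with 3 libraries a group. Ier2, Ier3, Ier5, Btg1 and Btg2 peak at 2 h, Gadd45a steps down from control to 2 h to 4 h, and Ier5l scatters between 0.467 and 2.77 CPM.

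Ier3 (ENSMUSG00000003541), also called IEX-1, a regulator of cell survival, had the widest range of the 8 genes. Its level in the WT control libraries was 202, 187 and 198.5 CPM, at 2 h of TNP-OVA 639, 703 and 666 CPM and at 4 h 467.5, 487 and 526.5 CPM. In the TTP-KO libraries it was 158, 179 and 172 CPM in control, 662, 654 and 611 CPM at 2 h and 357, 358 and 347 CPM at 4 h. Every stimulated library of both genotypes lay above every control library. The WT response was a log2 fold change of 1.77 ± 0.05 (SE, adjusted p = 3.39e-21) at 2 h and 1.33 ± 0.05 (SE, adjusted p = 5.60e-18) at 4 h, that is 3.42-fold and 2.52-fold. In TTP-KO cells the response was 1.92 ± 0.05 (SE, adjusted p = 6.43e-22) at 2 h and 1.06 ± 0.05 (SE, adjusted p = 9.94e-16) at 4 h. In order of level the groups ran from WT 2 h and TTP-KO 2 h, whose libraries overlapped, through WT 4 h, TTP-KO 4 h and WT control to TTP-KO control, each of these below all libraries of the one before. The highest group mean was 3.95 times the lowest.

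Ier5 (ENSMUSG00000056708), an immediate early gene whose product acts on the heat shock factor HSF1 through PP2A, also peaked at 2 h and stayed above control at 4 h. WT control libraries held 94.0, 84.7 and 96.2 CPM, those at 2 h 266, 259.5 and 275.5 CPM and those at 4 h 171, 176 and 181 CPM. The TTP-KO libraries held 87.6, 86.1 and 89.8 CPM in control, 212, 217 and 233 CPM at 2 h and 138.5, 136.5 and 142 CPM at 4 h. The control libraries of the genotypes overlapped, while at each time after TNP-OVA all 3 WT libraries lay above all 3 TTP-KO libraries. WT cells responded with a log2 fold change of 1.54 ± 0.05 (SE, adjusted p = 1.20e-19) at 2 h and 0.94 ± 0.05 (SE, adjusted p = 1.83e-14) at 4 h. TTP-KO cells responded with 1.33 ± 0.05 (SE, adjusted p = 3.73e-18) and 0.66 ± 0.05 (SE, adjusted p = 4.09e-11).

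Ier2 (ENSMUSG00000053560), which encodes a nuclear protein induced with the first wave of transcription factors, rose and returned close to its control level. WT libraries went from 112, 113 and 127 CPM in control to 257, 279 and 275 CPM at 2 h and 121, 151 and 145 CPM at 4 h. TTP-KO libraries went from 108.5, 119.7 and 117 CPM to 274, 283 and 271 CPM and 139, 134 and 118 CPM. All 6 libraries at 2 h stood above the other 12, whose groups overlapped their neighbours in level. The 2 h response was 1.20 ± 0.07 (SE, adjusted p = 5.11e-12) in WT and 1.26 ± 0.07 (SE, adjusted p = 2.19e-12) in TTP-KO. From 2 h to 4 h the level fell, with a log2 fold change of -0.96 ± 0.07 (SE, adjusted p = 4.34e-10) in WT and -1.08 ± 0.07 (SE, adjusted p = 5.62e-11) in TTP-KO. At 4 h WT was above control by 0.24 ± 0.07 (SE, adjusted p = 0.0127), and the libraries of those groups overlapped. That call was lost when WT control replicate 1 (adjusted p = 0.0669), WT control replicate 2 (0.0569), WT 4 h replicate 2 (0.131) or WT 4 h replicate 3 (0.0570) was left out. The value for TTP-KO at 4 h was 0.18 ± 0.07 (SE, adjusted p = 0.0702), which passed the threshold without the filter on low counts (adjusted p = 0.0197) or when only its own groups were fitted (0.0452), and without WT 4 h replicate 1 (0.0258) or TTP-KO 4 h replicate 3 (0.0140).

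Ier5l (ENSMUSG00000089762), the relative of Ier5, was close to the limit of detection, with 3 to 28 counts a library and 0.467 to 2.77 CPM. It passed no threshold in any of the 12 comparisons. Its WT 2 h over control value was -0.91 ± 0.54 (SE, adjusted p = 0.205), with a 95% interval from -2.02 to 0.19. At this depth a change of that size in Ier5l could not be told from none. Between genotypes its values were -0.27 in control, 0.52 at 2 h and 0.85 at 4 h on the log2 scale, with 95% intervals that lay within -1.29 and 1.83.

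Btg1 (ENSMUSG00000036478), an antiproliferative gene abundant in quiescent cells, stayed raised at both times. WT libraries held 411, 419 and 401 CPM in control, 771, 778 and 857 CPM at 2 h and 632, 648 and 623 CPM at 4 h. TTP-KO libraries held 349, 353 and 334 CPM, 747, 727 and 705 CPM and 575, 553 and 576 CPM in the same order. In order of level the 6 groups (WT 2 h, TTP-KO 2 h, WT 4 h, TTP-KO 4 h, WT control, TTP-KO control) did not overlap at any step. The response was 0.97 ± 0.04 (SE, adjusted p = 2.94e-17) at 2 h and 0.63 ± 0.04 (SE, adjusted p = 7.90e-13) at 4 h in WT. In TTP-KO it was 1.07 ± 0.04 (SE, adjusted p = 3.05e-18) and 0.72 ± 0.04 (SE, adjusted p = 5.81e-14). Near-copies of the gene in the table, Btg1b and Btg1c, held at most 1 count in any library, and the Btg1 estimate was not a whole number in 7 of 18 libraries.

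Btg2 (ENSMUSG00000020423), a p53 target that also binds the CCR4-NOT deadenylase, changed direction between the times. WT libraries held 205, 198 and 199.6 CPM in control, 248, 255 and 279.7 CPM at 2 h and 130.2, 137 and 119.6 CPM at 4 h. TTP-KO libraries held 164, 167 and 164 CPM, 241, 246 and 234 CPM and 121, 136 and 119 CPM. In each genotype all 2 h libraries lay above control and all 4 h libraries below it. The WT change was 0.38 ± 0.06 (SE, adjusted p = 2.67e-06) at 2 h and -0.64 ± 0.06 (SE, adjusted p = 2.54e-10) at 4 h, and the change from 2 h to 4 h was -1.01 ± 0.06 (SE, adjusted p = 2.14e-14), a 2.02-fold drop. TTP-KO cells gave 0.54 ± 0.06 (SE, adjusted p = 4.83e-09) at 2 h and -0.40 ± 0.06 (SE, adjusted p = 1.78e-06) at 4 h.

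Gadd45a (ENSMUSG00000036390), a stress-induced gene in many cell types, fell here at both times. WT libraries held 85.1, 82.0 and 99.3 CPM in control, 69.6, 64.0 and 68.7 CPM at 2 h and 51.5, 48.5 and 42.3 CPM at 4 h. TTP-KO libraries held 93.6, 105 and 99.8 CPM, 71.2, 75.2 and 72.0 CPM and 53.1, 56.1 and 47.8 CPM. Within each genotype the 3 conditions did not overlap. The WT change was -0.40 ± 0.08 (SE, adjusted p = 1.83e-04) at 2 h and -0.91 ± 0.08 (SE, adjusted p = 2.30e-10) at 4 h. The TTP-KO change was -0.45 ± 0.08 (SE, adjusted p = 3.77e-05) and -0.93 ± 0.08 (SE, adjusted p = 1.60e-10). An antisense gene, E230016M11Rik, overlaps Gadd45a and held 5.48 to 31.8 estimated counts a library, beside 416 to 1024 for Gadd45a. The counting strand is not stated in any source used here, so reads from these genes cannot be told apart, and the Gadd45a estimate was not a whole number in 17 of 18 libraries.

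Gadd45b (ENSMUSG00000015312), known as an NF-kB and TGF-beta response gene that protects cells from apoptosis, had the narrowest range, with the highest group mean 1.43 times the lowest. WT libraries held 134, 121 and 127 CPM in control, 116, 121 and 111.5 CPM at 2 h and 89.7, 86.0 and 92.1 CPM at 4 h. TTP-KO libraries held 121, 115 and 106.5 CPM, 95.8, 97.1 and 104 CPM and 94.6, 88.8 and 89.2 CPM. All stimulated libraries lay below the control libraries of their genotype. In WT the 2 h value was -0.14 ± 0.06 (SE, adjusted p = 0.0753), which did not pass, and the 4 h fall was -0.52 ± 0.06 (SE, adjusted p = 2.95e-08). In TTP-KO the gene fell at both times, with values of -0.20 ± 0.06 (SE, adjusted p = 0.00762) and -0.32 ± 0.06 (SE, adjusted p = 5.73e-05). Without WT control replicate 2 the WT 2 h value passed (adjusted p = 0.0465).

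In libraries labelled TTP-KO, 5 of the 8 genes rose and 2 fell at 2 h, where 17.8% of all genes rose and 16.6% fell. At 4 h 3 rose and 3 fell, where 18.3% of all genes rose and 16.7% fell. From 2 h to 4 h 6 fell and none rose, where 14.6% of all genes rose and 16.2% fell. The median log2 fold change of the 8 genes was 0.81 at 2 h, 0.35 at 4 h and -0.57 from 2 h to 4 h. Medians over all genes were -0.03, 0.01 and 0.03. The plot of both responses places the genotypes side by side for each gene. Within a genotype the 2 h and 4 h responses share the control libraries, so their values are not independent.

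**Figure D2:**
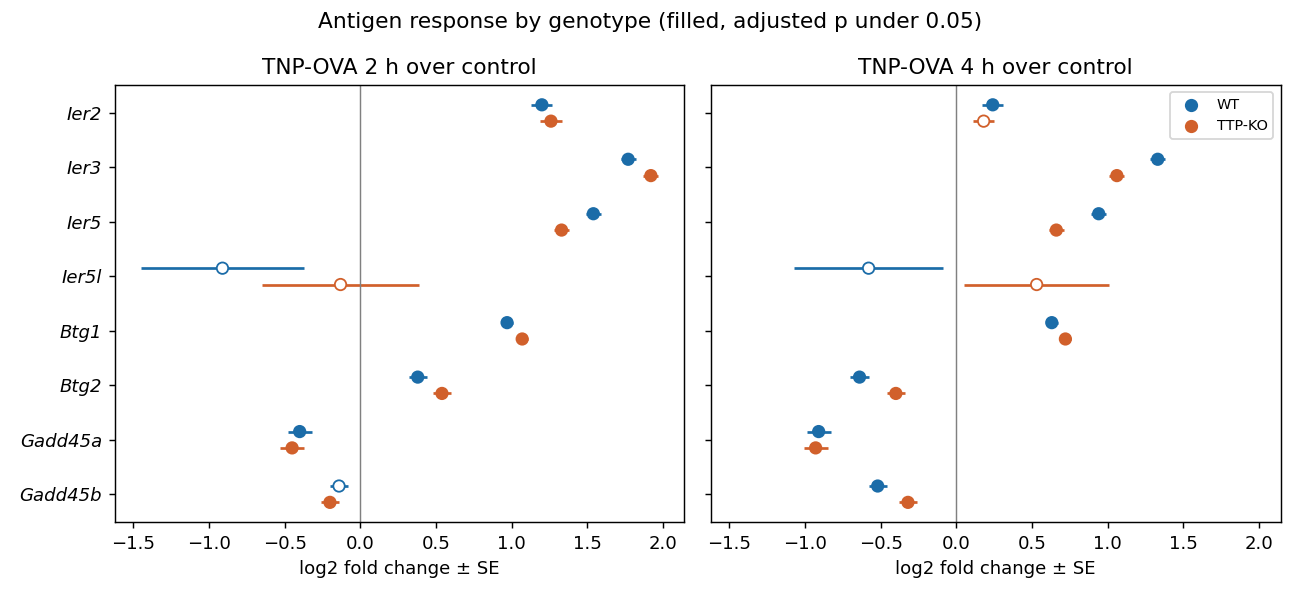
Log2 fold change of TNP-OVA over the 2 h control (horizontal axis, with SE) for each gene (vertical axis) at 2 h (left) and 4 h (right), in WT and TTP-KO; filled points have an adjusted p under 0.05 in edgeR's quasi-likelihood test. Ier3 has the largest increase in both genotypes, 1.77 and 1.92 at 2 h, and Gadd45a the largest called decrease at 4 h, -0.91 and -0.93.

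The genotypes were then compared within each condition, which addresses how loss of TTP bears on gene expression before and after antigen. In control cells 3 of the 8 genes were lower in TTP-KO and none higher: Btg2, Btg1 and Ier3. At 2 h of TNP-OVA 2 were lower, Ier5 and Gadd45b, and at 4 h 3 were lower, Ier3, Ier5 and Btg1. In those comparisons 1.65%, 2.79% and 5.22% of all genes were called in either direction. Over all genes tested, 58 were higher and 174 lower in control, 128 and 265 at 2 h, and 257 and 478 at 4 h. Calls over all genes thus also leaned lower in TTP-KO. The median difference of the 8 genes was -0.19 in control, -0.09 at 2 h and -0.07 at 4 h, beside medians over all genes of -0.00, 0.00 and 0.01.

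The largest called genotype difference among the members was that of Ier3 at 4 h. Mean levels were 494 ± 30.0 CPM in WT and 354 ± 6.31 CPM in TTP-KO (SD, n = 3 each), 1.39-fold lower, with a log2 difference of -0.48 ± 0.05 (SE, adjusted p = 1.56e-07). The lowest WT library (467.5 CPM) stood above the highest TTP-KO library (358 CPM). At 2 h the Ier3 levels overlapped and the difference was -0.06 ± 0.05 (SE, adjusted p = 0.648), with a 95% interval from -0.16 to 0.04. In control cells the difference was -0.21 ± 0.05 (SE, adjusted p = 0.0335), and all TTP-KO libraries lay below all WT libraries. The control call was lost when only those groups were fitted (adjusted p = 0.101) and without WT control replicate 1 (0.128) or 3 (0.102) or TTP-KO control replicate 1 (0.200) or 3 (0.0922).

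Ier5 was lower in TTP-KO after antigen, with a log2 difference of -0.27 ± 0.05 (SE, adjusted p = 0.00161) at 2 h and -0.34 ± 0.05 (SE, adjusted p = 4.41e-05) at 4 h. In control its libraries overlapped and the difference was -0.07 ± 0.05 (SE, adjusted p = 0.698), with a 95% interval from -0.18 to 0.05. Btg1 libraries of TTP-KO lay below those of WT in every condition, with a difference of -0.25 ± 0.04 (SE, adjusted p = 7.52e-04) in control, -0.14 ± 0.04 (SE, adjusted p = 0.0609) at 2 h and -0.16 ± 0.04 (SE, adjusted p = 0.0196) at 4 h. The Btg1 value at 2 h passed the threshold with relative log expression (RLE) scaling (adjusted p = 0.0364) and with DESeq2 (0.00821), and without WT control replicate 1 (0.0447) or 3 (0.0463) or WT 2 h replicate 1 (0.0242). The 4 h call of Btg1 was lost without WT 4 h replicate 1 (adjusted p = 0.0527) or 2 (0.139) or TTP-KO 4 h replicate 2 (0.114).

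Btg2 differed in control, at 201 ± 3.31 CPM in WT and 165 ± 1.98 CPM in TTP-KO (SD, n = 3 each), a log2 difference of -0.28 ± 0.06 (SE, adjusted p = 0.00418). At 2 h its difference was -0.12 ± 0.06 (SE, adjusted p = 0.316), with no overlap of libraries, and at 4 h it was -0.05 ± 0.06 (SE, adjusted p = 0.751) with overlap. Gadd45b was lower in TTP-KO at 2 h, with a difference of -0.23 ± 0.06 (SE, adjusted p = 0.0296). That call was lost when only those groups were fitted (adjusted p = 0.0676) and without WT 2 h replicate 2 (0.134) or TTP-KO 2 h replicate 1 (0.129) or 2 (0.0860). In control the Gadd45b difference was -0.16 ± 0.06 (SE, adjusted p = 0.177), with all TTP-KO libraries below those of WT, and at 4 h it was 0.03 ± 0.06 (SE, adjusted p = 0.873), with overlap. Gadd45a had a mean above WT in TTP-KO in all 3 conditions, with differences of 0.16, 0.11 and 0.14 on the log2 scale, none of which passed (unadjusted p = 0.0497 in control). Its 3 TTP-KO libraries at 2 h lay above those of WT, and its libraries overlapped in the other conditions. For Ier2 the differences were -0.03, 0.03 and -0.10, with 95% intervals that lay within -0.25 and 0.18.

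**Figure D3:**
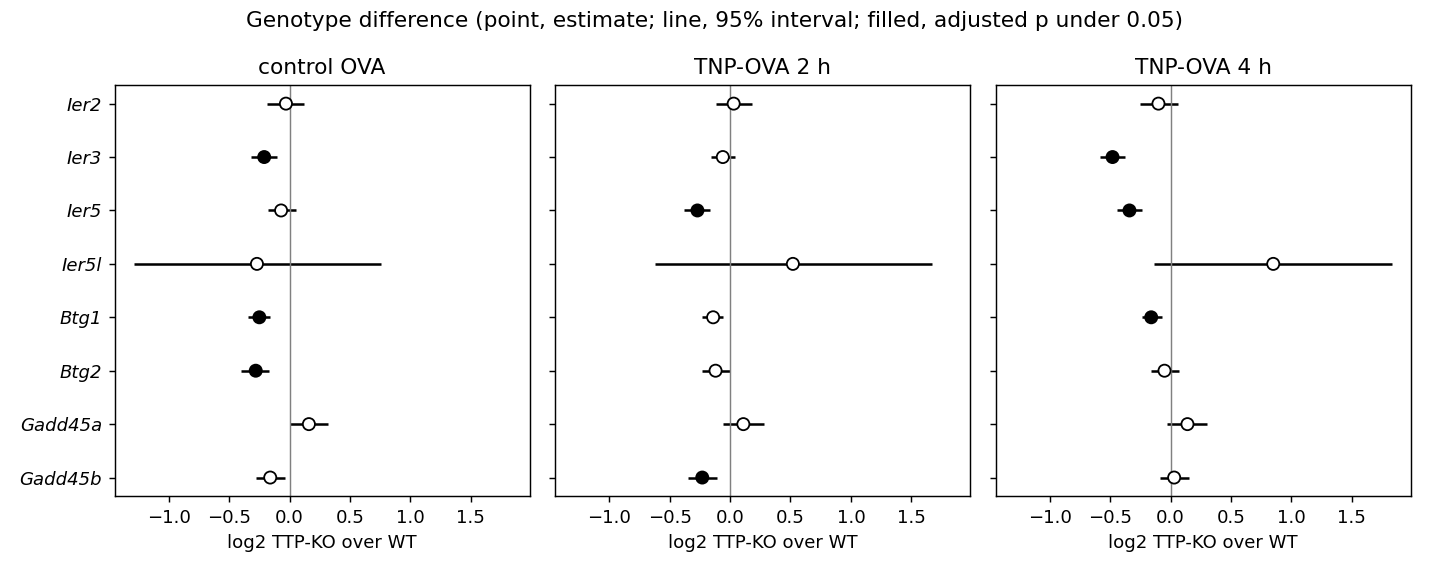
Log2 difference of TTP-KO over WT (horizontal axis) for each gene (vertical axis) in control, 2 h and 4 h of TNP-OVA; points are estimates, lines 95% intervals, and filled points have an adjusted p under 0.05 in edgeR's quasi-likelihood test. The 8 filled points all lie left of 0, with Ier3 at 4 h (-0.48) farthest, and the intervals of Ier5l are the widest. Over all genes tested, more were also called lower than higher in each condition.

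Markers of other cells also differed between the genotypes. T and B cell markers summed to 49.5 to 63.0 CPM in WT and 22.9 to 30.7 CPM in TTP-KO libraries, and 4, 5 and 4 of the 5 tested were lower in TTP-KO in control, at 2 h and at 4 h. Dendritic cell markers summed to 3803 to 4281 CPM in WT and 2560.0 to 2869.8 CPM in TTP-KO, with 4 of 7 lower in each condition. Mast cell markers summed to 189 to 218 CPM in WT and 119 to 137 CPM in TTP-KO, with 2 of 4 lower in each condition and 1 of the 7 listed without any count. Neutrophil and granulocyte precursor markers summed to 1739 to 2479 CPM in WT and 2589 to 3475 CPM in TTP-KO, with 6, 8 and 10 of 16 higher and 1 lower at 4 h. Monocyte and macrophage markers summed to 6638 to 8081 CPM in WT and 8021 to 9478 CPM in TTP-KO, with 2, 4 and 6 of 11 higher and 1 lower in each condition. Most of that sum was Lyz2, with control means of 5928.5 CPM in WT and 7043.6 CPM in TTP-KO, so the sum mainly follows this 1 gene. NK cell markers summed to at most 4.68 CPM, with 1 of 6 at 0, and erythroid and megakaryocyte markers to 1197 to 1687 CPM, with 1 of 8 lower. Of the 12 basophil markers, 1 was higher and 3 lower in control, 1 and 1 at 2 h, and 0 and 5 at 4 h. The part of these cells in the genotype differences of Ier3, Ier5, Btg1, Btg2 and Gadd45b was not tested.

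Whether the antigen response itself differed between genotypes was tested with an interaction term, the TTP-KO response minus the WT response. For 2 h over control, 0 of the 8 genes passed, where 0.0497% of all genes did. At unadjusted p under 0.05, 3 did (Ier3, Ier5 and Btg2), and DESeq2 called 0. The Ier3 value was 0.15 ± 0.07 (SE, adjusted p = 0.750), that of Btg2 0.17 ± 0.08 (SE, adjusted p = 0.740) and that of Ier5 -0.21 ± 0.07 (SE, adjusted p = 0.566). For 4 h over control, 0 of the 8 passed in edgeR, where 0.689% of all genes did, and 4 had an unadjusted p under 0.05 (Ier3, Ier5, Btg2 and Gadd45b). Ier3 stood at -0.27 ± 0.07 (SE, adjusted p = 0.0880) and Ier5 at -0.27 ± 0.07 (SE, adjusted p = 0.0955), and DESeq2 called both (adjusted p = 0.0279 and 0.0306). Ier3 also passed with no filter on low counts (adjusted p = 0.0316) and without TTP-KO control replicate 1 (0.0416), and Ier5 without WT control replicate 3 (0.0478). Btg2 and Gadd45b had values of the other sign, 0.24 and 0.19.

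For the step from 2 h to 4 h, 1 of the 8 genes passed, where 0.313% of all genes did. Ier3 changed by -0.44 ± 0.05 (SE, adjusted p = 5.50e-08) in WT and by -0.86 ± 0.05 (SE, adjusted p = 7.16e-14) in TTP-KO. The TTP-KO change minus the WT change was -0.42 ± 0.07 (SE, adjusted p = 0.00328), with a 95% interval from -0.56 to -0.28, and it ranked 9 by p among all genes tested. The other 7 genes had differences from -0.12 to 0.32 that did not pass, of which Gadd45b, at 0.26 ± 0.08 (SE, adjusted p = 0.264), had the smallest p. The interaction uses the same 2 h and 4 h libraries as the genotype comparisons of Ier3, so it is another view of those values and not further evidence.

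The courses of the 8 genes over the libraries were also compared with each other. Pearson's r of log2 CPM over the 18 libraries was 0.98 for Ier3 with Ier5 and with Btg1 and 0.97 for Ier5 with Btg1. Ier2 correlated with Ier5 at 0.88, with Ier3 at 0.85, with Btg1 at 0.82 and with Btg2 at 0.73. Gadd45a and Gadd45b correlated at 0.77, while Btg1 and Btg2 correlated at 0.33 despite their shared family. These correlations are descriptions, since the libraries fall into 6 groups and the genes share every library and its scaling.

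Among all tested genes whose mean log2 CPM reached 2, those with the course most like each member were found by the same measure. For Ier3 they were Hgf (r = 0.996), Lcp2 (0.994) and Ccr1 (0.993). For Ier5 they were Actb (0.995), Arf6 (0.994) and Slc7a5 (0.993). For Ier2 they were Nab2 (0.989), Ggct (0.989) and Nr4a1 (0.988), of which Nab2 and Nr4a1 are themselves early response genes. For Btg1 they were Slc41a2 (0.988), Ets2 (0.988) and Tpm4 (0.987), and for Btg2 Lpin2 (0.977), Klf13 (0.977) and Tgoln1 (0.976). For Gadd45a they were Tspan13 (0.969), Rapsn (0.968) and Adipor1 (0.966), and for Gadd45b Bbc3 (0.927), Rora (0.927) and Irf1 (0.921). The low counts of Ier5l gave lower values, with Supt16 (0.798), Gas5 (0.778) and Ncbp2as2 (0.767).

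Related genes were read from 7 lists around the members' known roles. Their counts in WT stand beside 17.8% of all genes tested that rose and 17.3% that fell at 2 h. At 4 h 19.6% of all genes were higher and 18.4% lower. These shares apply to all 7 lists. Of the 5 tested BTG/TOB and GADD45 relatives, 2 rose in WT at 2 h: Tob1, another BTG/TOB family member, by 0.44 ± 0.11 (SE) on the log2 scale and Gadd45g by 0.39 ± 0.12. At 4 h Tob1 was lower (-0.37 ± 0.11), and Btg3 (0.63 ± 0.23) and Gadd45gip1 (0.27 ± 0.10) were higher. Gadd45gip1 is named for an interaction with a GADD45 protein and is not a family member, though the list counts it. Of 11 CCR4-NOT subunits, 2 rose and 1 fell at 2 h, and 1 rose and 1 fell at 4 h. Among them Cnot7, a deadenylase that BTG proteins bind, rose by 0.33 ± 0.07 at 2 h, and Cnot6l, another deadenylase of the complex, fell by 0.50 and then 0.79 on the log2 scale.

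Of 12 p38 and JNK pathway genes, 4 rose and 5 fell at 2 h, and 2 rose and 5 fell at 4 h. Map2k3, a kinase that activates p38, rose by 0.87 ± 0.06 at 2 h and 0.32 ± 0.06 at 4 h. Map3k4, the kinase that GADD45 proteins bind, was lower at both times (-1.07 ± 0.25 and -0.57 ± 0.23), and Mapk14, p38 alpha, was lower as well (-0.56 ± 0.06 and -0.51 ± 0.06). Map3k4 had low counts, 21 to 76 a library in WT. Its 4 h value passed narrowly (adjusted p = 0.0477, edgeR's quasi-likelihood test). Of 11 PP2A subunits, 2 rose and 3 fell at 2 h, or 3 called in all without the filter on low counts, and 3 rose and 1 fell at 4 h. The catalytic subunit Ppp2ca rose at both times (0.61 ± 0.05 and 0.25 ± 0.05).

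Of 20 p53 target genes, 7 rose and 5 fell at 2 h, and 7 rose and 4 fell at 4 h. Plk3, a stress-induced kinase, rose most, by 3.10 ± 0.06 at 2 h, and Perp, a desmosome protein, and Cdkn1a, the cell cycle inhibitor p21, rose by 1.90 ± 0.04 and 1.23 ± 0.04. The list median was 0.10 at 2 h and 0.06 at 4 h, beside -0.05 and -0.01 over all genes. Btg2, a member and itself a p53 target, rose at 2 h and was below control at 4 h, whereas Gadd45a fell at both times. Of 16 FOXO target genes, 4 rose and 8 fell at 2 h, and 3 rose and 12 fell at 4 h, with a list median of -0.47 at 4 h beside -0.01 over all genes. The cell cycle inhibitor Cdkn1b fell by 1.16 and 1.18 on the log2 scale and Klhl24 by 1.17 and 1.32, while Bcl2l11, the death gene Bim, rose by 1.58 ± 0.05 and 0.89 ± 0.05. Of 13 genes of serum response factor and its partners, 7 rose and 3 fell at 2 h, and 5 rose and 6 fell at 4 h. Crem rose by 1.01 ± 0.08 and 2.06 ± 0.08, and Mrtfa, a serum response factor coactivator, was lower at both times.

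**Figure D4:**
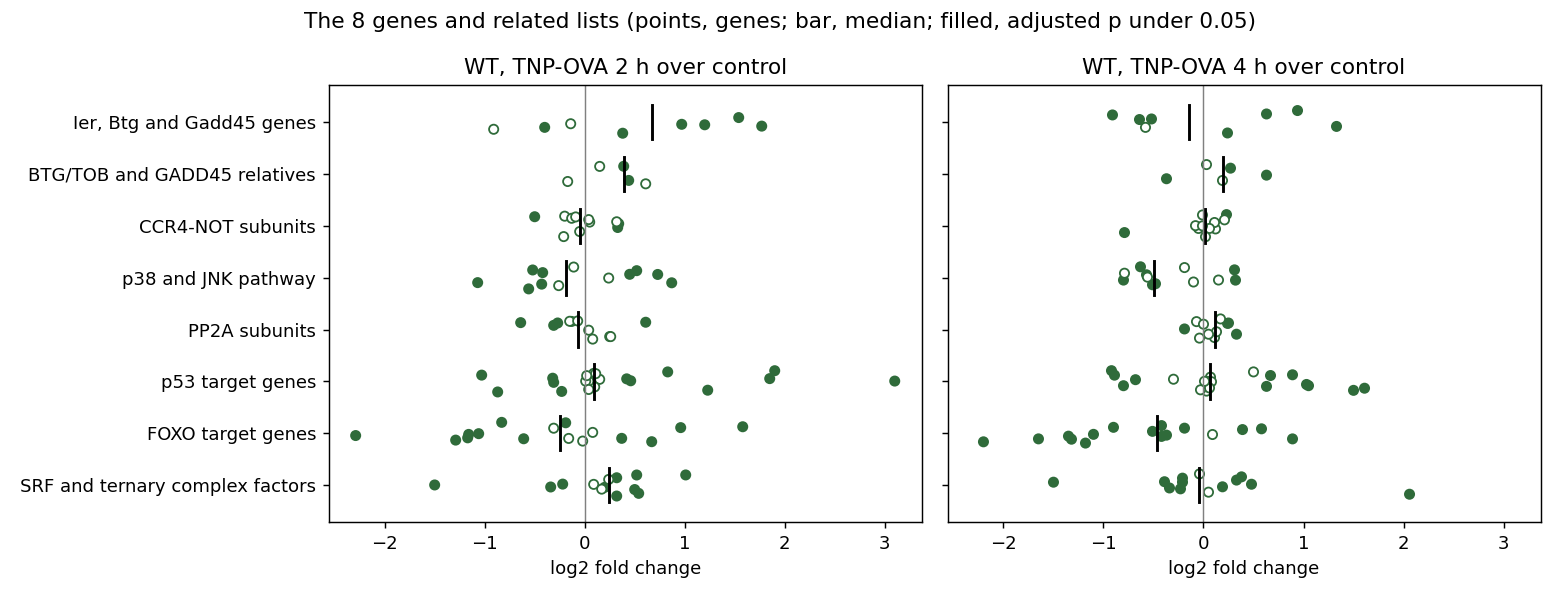
Log2 fold change of TNP-OVA over control in WT (horizontal axis) at 2 h (left) and 4 h (right) for the 8 genes and 7 related lists (vertical axis); points are genes, bars medians, filled points have an adjusted p under 0.05 in edgeR's quasi-likelihood test, and vertical jitter only separates points. The median of the 8 genes moves from 0.67 to -0.14, which at 4 h lies in a gap between higher and lower genes. That of the FOXO target genes moves from -0.25 to -0.47.

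The lists were also compared between genotypes, where 1.65% of all genes were called in control, 2.79% at 2 h and 5.22% at 4 h. More of those calls were lower than higher in TTP-KO in each condition. In control 2 of 20 p53 target genes were lower in TTP-KO, Cdkn1a (-0.23 ± 0.04) and Perp (-0.16 ± 0.04), and 3 of 16 FOXO target genes, Il7r (-0.31 ± 0.05), Bcl2l11 (-0.27 ± 0.05) and Txnip (-0.20 ± 0.04). At 2 h 2 of 20 p53 target genes were lower, Perp (-0.22 ± 0.04) and Pmaip1 (-0.23 ± 0.06), and 4 of 16 FOXO target genes, Txnip, Bcl2l11 and Il7r among them. At 4 h 4 of 20 p53 target genes were lower, with Sesn2 (-0.63 ± 0.08) farthest and Cdkn1a, Perp and Pmaip1 between -0.27 and -0.19. Of 16 FOXO target genes at 4 h, 4 were lower, Il7r, Cited2 and Txnip among them, and 1, Bcl6, was higher (0.56 ± 0.13). Cnot7 (-0.25 ± 0.07), Map2k4 (-0.18 ± 0.05) and Rps6ka1 (-0.17 ± 0.05) were each the only called gene of their lists at 4 h. Both edgeR and DESeq2 called 0 of the 5 relatives and 0 of the 11 PP2A subunits between genotypes in any condition. At an unadjusted p under 0.05 there was 1 relative in each condition, and 0 PP2A subunits in control and at 2 h and 2 at 4 h.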

How the data were processed

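Gene expression was measured in 18 bulk RNA-seq libraries, 3 in each of 6 groups, grouped by the genotype and treatment in the labels. The deposited table holds expected counts per gene of the kind RSEM gives, not normalized, from the authors. The build GRCm39 and the tools RSEM 1.3.1, STAR 2.7.10a, cutadapt 3.5 and R 4.4.0 and 4.4.1 are listed in the submitters' processing notes without their roles. Strand setting and annotation release are not stated in any source used here. Columns named as unstimulated were matched to the control OVA libraries.

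Rounded counts were then modelled here with edgeR 4.0.16 in R 4.3.3: filterByExpr, TMM scaling, and a robust quasi-likelihood fit with 1 mean per group (12 residual degrees of freedom, biological coefficient of variation 0.0905). There were 12 contrasts, 3 of genotype, 6 of stimulation and 3 interactions, with Benjamini-Hochberg adjustment over 14076 genes. The SE was obtained as the absolute log2 fold change over the root of the F statistic. The 3 libraries of a group hold 5516580 to 12733172 counts each, and an exact permutation test of 3 against 3 cannot go below 0.100. The script was tested on data simulated with the spread fitted here, for the WT 2 h over control comparison only. Genotype differences and interactions were not simulated, and the outcome is not used as support here. No pair of libraries within a group was a copy (chi-square per degree of freedom 2.96 to 6.77 over 18 pairs).

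All 8 genes are named in each comparison. Of each related list up to 3 genes with the smallest adjusted p in WT at 2 h or 4 h are named, and those called between genotypes. Map3k4, which falls outside this rule, was named after its values were seen. For likeness the 3 genes with the highest Pearson r are named (log2 CPM with a prior count of 2). The members and lists were chosen with earlier results of these data known. Alternatives were RLE scaling, no filter, DESeq2 1.42.0, only the groups compared, the replicate number as a block, and each library left out. The values of 1 gene of the related lists are not reported here, and the list counts include it.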

Additional observations from a re-analysis of the deposited data

Results flagged for a closer look

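The change of Ier3 from 2 h to 4 h of TNP-OVA differed between the genotypes by a log2 value of -0.42 (TTP-KO minus WT, SE 0.07, adjusted p = 0.00328, edgeR's quasi-likelihood interaction term). It drew attention because the test of the difference itself passed the threshold. The change was -0.44 in WT and -0.86 in TTP-KO, with all 3 libraries at 4 h below all 3 at 2 h in each genotype. Under the 23 alternatives the difference lay between -0.46 and -0.37 and the call held in all 23. The markers of other cells given with the genotype comparisons also differed between genotypes, and their part in this value was not tested.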

How the results depend on the processing

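The 8 genes were refitted in 12 comparisons under the alternatives, and 2172 of the 2201 values obtained kept their direction and 2141 kept both direction and call. DESeq2 gave no adjusted p for Ier5l in 4 comparisons and Gadd45a in 1, and with only the groups compared Ier5l missed the filter on low counts in 2. All obtained values that changed direction came from leaving out 1 library, in results that passed no threshold. Over the 18 such fits Ier2 ran from -0.07 to 0.03 (TTP-KO over WT, control), -0.02 to 0.05 (2 h), -0.01 to 0.09 (interaction at 2 h) and -0.15 to 0.01 (interaction at 4 h). Ier5l ran from -0.27 to 0.90 (TTP-KO over WT, 2 h), -0.34 to 0.60 (WT, 4 h over 2 h), -0.92 to 0.26 (TTP-KO, 2 h over control), -0.01 to 1.17 (interaction at 2 h) and -0.05 to 1.12 (interaction, 4 h over 2 h). For TTP-KO over WT at 4 h, Btg2 ran from -0.11 to 0.00 and Gadd45b from -0.00 to 0.05. Gadd45a ran from -0.14 to 0.00 (interaction at 2 h), -0.11 to 0.04 (at 4 h) and -0.05 to 0.09 (4 h over 2 h), and Btg1 from -0.05 to 0.03 (4 h over 2 h).

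The members called lower in TTP-KO at 2 h numbered 2, but 1 when only those groups were fitted, and 1 to 3 with a library left out. The interaction at 4 h over control called 0 of the 8, but 1 with no filter, 2 with DESeq2 and 0 to 1 with a library left out. Over all genes, the control genotype count of 232 became 399 with no filter and 149 with only those groups, and ran from 145 (without TTP-KO control replicate 3) to 245 with a library left out. The 2 h count of 393 ran from 228 (without WT 2 h replicate 3) and 259 (without TTP-KO 2 h replicate 1) to 463. The 4 h count of 735 became 1130 with only those groups and ran from 466 (without WT 4 h replicate 2) and 484 (without TTP-KO 4 h replicate 3) to 829. The interaction counts of 7, 97 and 44 (2 h over control, 4 h over control, 4 h over 2 h) became 55, 259 and 134 with no filter and 31, 188 and 128 with DESeq2. The first became 11 with only its groups, and with a library left out they ran from 4 to 8, 46 to 133 and 25 to 62. The first was 4 without TTP-KO control replicate 2 or TTP-KO 2 h replicate 1 or 3. The second was 46 without TTP-KO 4 h replicate 2, 51 and 52 without WT 4 h replicates 2 and 3, 56 without TTP-KO control replicate 2, and 59 without WT control replicate 2 or TTP-KO 2 h replicate 2. The third was 25 and 29 without TTP-KO 2 h replicates 3 and 2, 26 without WT 4 h replicate 3 and 29 without TTP-KO 4 h replicate 3. The cause of these shifts was not tested.

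With the replicate number as a block, all 96 member values kept direction and call, and 3, 2 and 3 members differed by genotype in control, at 2 h and at 4 h. The labels do not say what the numbers share, and same-numbered libraries did not deviate together (correlations -0.0814 to 0.0408 over 45 pairs, none over 0.1). Of 18 libraries, 4 correlated best with their own number. Depth limits Ier5l, at 3 to 28 counts a library.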
